A study of Homo sapiens with 12 samples.

Results

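The distribution of RNA along a ribosome density gradient was described for unstressed U87MG cells, a human glioblastoma line. The loci compared are those of the FPKM table (fragments per kilobase of transcript, scaled to library size) with a mean of at least 1 FPKM over the 3 gradient libraries of normoxic cells kept at pH 7.4, which are 12164 of the 55598 loci listed. The loci SYNJ1, RP4-773A18.4 and ZC3H12C lay just inside that minimum (means of 1.00 FPKM), and FUBP3 and a locus with no gene name lay just outside it (0.9999 and 0.9992 FPKM).

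Lysates of cells treated for 24 hours were separated by ribosome density, and mRNA libraries were made from a polysome fraction, an oligosome fraction and a monosome fraction, which also holds free RNA. The study set polysomal abundance against free and monosomal abundance as its measure of translation efficiency. The whole series has 12 libraries, with the same 3 fractions from normoxia with acidosis (pH 6.0), neutral hypoxia (1% oxygen, pH 7.4) and hypoxia with acidosis, and the oxygen percentage of normoxia is not given in the sources used here. There is 1 library per fraction, so no value below has a replicate error and no test was run. The lysates are of bulk cells, so an mRNA evenly loaded in every cell and one loaded heavily in some cells alone cannot be told apart.

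As background, an mRNA that is being translated carries several ribosomes spaced along its coding region and sediments deep in the gradient, while an mRNA held back from initiation stays with free RNA or single ribosomes. The number of ribosomes an mRNA can carry also grows with the length of its coding region. Well studied classes of regulated mRNA are those with a terminal oligopyrimidine (TOP) tract at the cap, which encode the translation machinery and follow growth signals through the mTOR kinase and LARP1, and those with an iron-responsive element, a stem-loop near the cap that iron regulatory proteins bind when iron is scarce. Others have short upstream reading frames, which capture scanning ribosomes before the main start codon.

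For each locus, 1 was added to its FPKM, the log2 of polysome over monosome was taken, and the median locus was set to 0. A value of 1 is therefore a polysome to monosome ratio 2-fold above that of the median locus. The uncentred median was 0.21, so centring moved each value by that amount. Multiplied by the authors' factor for the RNA in each fraction and not centred, the median was 1.94 and 83.0% of loci lay above 0, so each direction below is relative to the median locus and not a share of molecules. Of the 12164 loci, 1989 (16.4%) lay at least 2-fold above the median locus and 2938 (24.2%) at least 2-fold below. Among the 7365 loci that name 1 protein-coding gene that no other compared locus names, these were 1510 (20.5%) and 768 (10.4%).

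The summed FPKM was 454424 in the polysome, 505054 in the oligosome and 921452 in the monosome library. The 100 most abundant loci held 38.0%, 45.1% and 66.2% of those sums, so a few very abundant RNAs took up much of the monosome library. The number of reads behind each value is unknown. Of the markers of a mesenchymal glioma line, VIM (957.8, 901.9 and 1337 FPKM in polysome, oligosome and monosome) was abundant, FN1 averaged 6.44 FPKM, and CHI3L1 was at 0.287 FPKM in the polysome and listed at 0 in the other libraries. The astrocyte marker GFAP had at most 0.0386 FPKM and the neural stem cell marker NES at most 0.739 FPKM, so the labelled brain origin is not visible in them. Of 17 markers of other cell types with a locus, 8 were listed at 0 in all 3 libraries, and only SNAP25 and EPCAM reached a mean of 1 FPKM (4.83 and 1.32 FPKM).

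2 sets of sequences are shown, from genes picked for their low polysome to monosome ratios. Whether the signals in them bear on these ratios was not tested. The first is the iron-responsive element of the 2 ferritin mRNAs, read 5′ to 3′ from GENCODE 29 transcripts (GRCh38), with the hairpin loop CAGTG and the base after it in capitals.
FTL: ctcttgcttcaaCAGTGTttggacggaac
FTH1: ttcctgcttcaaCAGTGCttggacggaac
FTL lies at chr19:48965301-48966878 on the plus strand and FTH1 at chr11:61959718-61967660 on the minus strand.

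The second set is the 30 bases around the annotated transcription start (15 on each side, RefSeq on GRCh38.p14, gene strand) of 6 genes of the translation machinery. Capitals mark a run of a C followed by at least 6 bases that are C or T, the shape of a TOP tract.
RPLP1: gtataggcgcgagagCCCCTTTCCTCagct
RPS12: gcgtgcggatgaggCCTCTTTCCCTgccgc
RPSA: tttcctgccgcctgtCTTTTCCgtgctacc
RPLP0: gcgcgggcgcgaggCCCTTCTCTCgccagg
EEF1A1: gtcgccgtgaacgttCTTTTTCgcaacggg
TPT1: agcggctgagtcggCCTTTTCCgcccgctc
These windows lie at chr15:69452803-69452832 (RPLP1, plus), chr6:132814554-132814583 (RPS12, plus), chr3:39406705-39406734 (RPSA, plus), chr12:120201097-120201126 (RPLP0, minus), chr6:73521018-73521047 (EEF1A1, minus) and chr13:45341169-45341198 (TPT1, minus). In each of these 6, shown for their low ratios, the tract began at or next to the annotated start. Not all ribosomal protein genes had it there: RPL32 (log2 -1.25) had no such run in its window, and in RPS7 (log2 -0.94) it began farther upstream.

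A run of this kind stood at 15.3% of 6119 coding loci searched. It stood at 13.3% of those at least 2-fold above the median locus, so its absence is the usual case. These are the same windows of 3 genes with a high polysome to monosome ratio, in which no such run was found.
AHSA1: gggaagcaatgagacgtgttctttgttttc
MLEC: tgggaggcggtacccgtggctgagaagaag
HNRNPD: acgcgccgttcttccgtcggccattttagg
They lie at chr14:77457852-77457881 (AHSA1, plus), chr12:120687134-120687163 (MLEC, plus) and chr4:82373977-82374006 (HNRNPD, minus). RPL3, a ribosomal protein gene near the median locus, also had no such run in its window. Each window covers 1 annotated start. At any listed start the run stood at 38 of 46 ribosomal protein genes, against 34 at the first. Whether absence of the run bears on the ratio was not tested.

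The mRNA with the highest polysome to monosome ratio among those with a mean of at least 10 FPKM was PTPN11, which encodes the tyrosine phosphatase SHP2 that couples growth factor receptors to Ras. It had 54.3 FPKM in the polysome, 14.0 in the oligosome and 3.66 in the monosome library, a ratio 10.2-fold above that of the median locus (log2 3.35). AHSA1, an activator of the HSP90 ATPase, had 259.6, 41.9 and 23.8 FPKM (9.05-fold), and it is an abundant mRNA. Both stood highest in the polysome and lowest in the monosome fraction.

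DNAJC5, a synaptic vesicle co-chaperone, was 9.01-fold above the median locus, with 37.4, 11.6 and 2.68 FPKM in polysome, oligosome and monosome. MLEC, an endoplasmic reticulum lectin, had 143, 71.9 and 14.9 FPKM in the same order, 7.79-fold above. PHAX, an export adaptor of small nuclear RNAs, was 7.47-fold above, and AAMP, an angio-associated cell migration protein, 7.26-fold. KIAA0100, with 2235 residues, was the longest protein among the 12 highest and had nearly equal polysome and oligosome levels (25.4 and 21.4 FPKM) against 2.31 FPKM in the monosome. The others of the 12 were NFIC, FAM168B, SDCBP, TRIM44 and PRDX1 (log2 2.65 to 2.82). PRDX1, an abundant peroxiredoxin, had 556, 109 and 75.5 FPKM, so high ratios were not confined to mRNAs of low level.

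**Figure D1:**
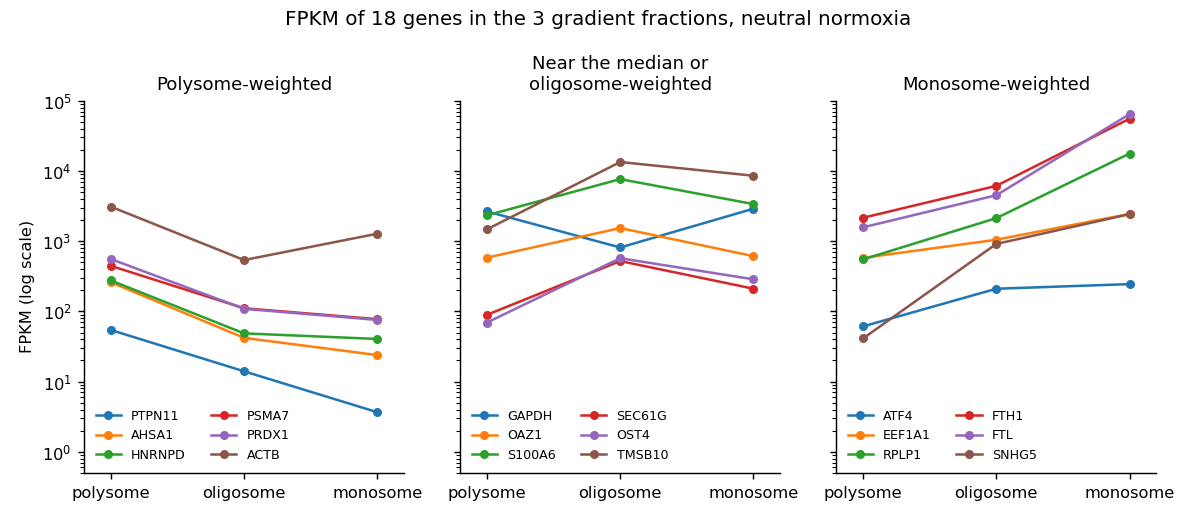
FPKM (log axis) of 18 genes in the polysome, oligosome and monosome libraries of neutral normoxia, 1 library per point. In the left panel all 6 genes are highest in the polysome, in the middle panel 5 of 6 peak in the oligosome while GAPDH dips there, and in the right panel all 6 are highest in the monosome.

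Of 42 lists of genes by function or pathway, the proteasome stood highest. The counts of each list are to be read beside the 20.5% of coding loci at least 2-fold above and the 10.4% at least 2-fold below. The proteasome is the barrel-shaped protease that degrades ubiquitin-tagged proteins, and its core and regulatory particles are built from many subunits. Of its 24 compared subunits, 20 lay at least 2-fold above the median locus and 0 below, with a median of 1.49 on the log2 scale and a range of 0.50 to 2.29. All 24 were above 0. Coding loci for proteins of the same length range, ribosomal protein and TOP genes left out, had a median of 0.59. The subunits together made up 0.718% of all FPKM in the polysome library, 0.166% in the oligosome and 0.099% in the monosome.

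PSMA7, an alpha ring subunit of the core, had 445 FPKM in the polysome, 111 in the oligosome and 77.4 in the monosome (4.90-fold above the median locus). PSMB1, a beta ring subunit of the core, had 272, 55.5 and 49.5 FPKM (4.67-fold). The lowest were PSMD4, a ubiquitin receptor of the regulatory particle (65.1, 25.6 and 33.2 FPKM, log2 0.74), and PSMC1, an ATPase of its base (41.8, 16.3 and 25.2 FPKM, log2 0.50). The 3 highest were core subunits (PSMA7, PSMB1 and PSMB6) and the 3 lowest were regulatory ones (PSMC1, PSMD4 and PSMD6). The whole separation lay between oligosome and polysome: the list median was 1.85 for polysome over oligosome and -0.28 for oligosome over monosome.

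Proteins of the mitochondrial ribosome, encoded in the nucleus, were weighted to polysomes in contrast to those of the cytosolic ribosome. Of 55 compared, 26 lay at least 2-fold above the median locus and 0 below (median 0.94). MRPL28 had 64.1 FPKM in the polysome, 12.1 in the oligosome and 11.6 in the monosome (4.47-fold), and MRPL19 had 45.4, 6.95 and 8.80 FPKM (4.09-fold). MRPL51, with 128 residues, was highest in the oligosome (145, 408 and 169 FPKM) and lay at -0.44. Citric acid cycle enzymes (12 compared) had a median of 0.92, with 5 above 2-fold and 0 below. The 2 highest were the pyruvate dehydrogenase subunits PDHB (46.4, 10.46 and 10.3 FPKM, 3.602-fold) and PDHA1 (126, 25.5 and 34.9 FPKM, 3.04-fold), which feed the cycle. OGDH lay near the median locus, at -0.07.

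Respiratory chain subunits were spread more widely. In complex I, 10 of 25 lay at least 2-fold above and 1 below (median 0.77), and in complexes II to V 10 of 31 above and 5 below (median 0.62). NDUFB6, an accessory subunit of complex I, had 134 FPKM in the polysome, 71.3 in the oligosome and 32.4 in the monosome (3.48-fold). ATP5H, a stalk subunit of ATP synthase with 161 residues, had 328, 106 and 82.1 FPKM (3.41-fold), and CYC1, cytochrome c1, had 166, 42.4 and 46.1 FPKM (3.06-fold). The subunits furthest below were short proteins: USMG5 with 58 residues (149, 1266 and 847 FPKM, 6.57-fold below), ATP5I with 69 (120.1, 600.4 and 275 FPKM, 2.64-fold below) and NDUFB3 with 98 (59.3, 273 and 121 FPKM, 2.34-fold below). These 3 were highest in the oligosome.

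Among translation initiation factors, which bring the small ribosomal subunit to the mRNA, 11 of 23 lay at least 2-fold above and 1 below (median 0.94). EIF3A, the largest subunit of the scaffold eIF3, had 14.9 FPKM in the polysome, 13.1 in the oligosome and 3.25 in the monosome (3.24-fold). EIF2S1, the alpha subunit of eIF2 that stress kinases phosphorylate, had 135, 29.1 and 35.3 FPKM (3.23-fold). EIF4A2, a helicase of the cap-binding complex, lay 2.18-fold below the median locus (87.9, 132 and 166 FPKM). EIF4EBP1, the repressor of the cap-binding protein that mTOR switches off, was highest in the oligosome (89.0, 202 and 102 FPKM) and lay at -0.41.

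Splicing factors of the hnRNP and SR families held members at both ends. Of 27, 10 lay at least 2-fold above and 2 below (median 0.58). HNRNPD, an AU-rich element binding protein, had 276 FPKM in the polysome, 48.6 in the oligosome and 40.5 in the monosome (5.75-fold), and HNRNPA2B1 had 482, 83.4 and 71.7 FPKM (5.73-fold). SRSF6 and HNRNPH1 stood at the other end, 2.95-fold and 2.21-fold below the median locus, with 32.2, 28.1 and 83.5 FPKM and 52.4, 54.4 and 100.6 FPKM. Their FPKM was thus highest in the monosome library, but uncentred and scaled by the authors' RNA factors both ratios were above 0, at 0.47 and 0.90.

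Growth factor receptors, which are long membrane proteins, had 4 of 10 at least 2-fold above and 1 below (median 0.85). FGFR1 had 39.3 FPKM in the polysome, 13.02 in the oligosome and 9.45 in the monosome (3.32-fold). MET, the receptor of hepatocyte growth factor, had 25.7, 12.1 and 6.70 FPKM (2.99-fold), and AXL, the receptor of GAS6, had 91.9, 31.5 and 33.02 FPKM (2.35-fold). EGFR was not analysed here, since no locus names it alone. Endoplasmic reticulum chaperones had 4 of 14 above (28.6%) and 0 below (median 0.76), against 20.5% and 10.4% of coding loci. They ran from CRELD2, a stress-induced disulfide isomerase (36.2, 11.3 and 5.52 FPKM, 4.92-fold), to CALR, the lectin chaperone calreticulin (179, 105 and 236 FPKM, log2 -0.61).

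Several lists lay at or near the median locus. The medians were 0.34 for 16 very large cytoskeletal and scaffold proteins, 0.07 for 25 mitosis genes, 0.04 for 16 cytosolic chaperones, 0.01 for 18 collagens and matrix glycoproteins and -0.09 for 16 aminoacyl-tRNA synthetases. DYNC1H1, the dynein heavy chain with 4646 residues, had 39.7 FPKM in the polysome, 22.2 in the oligosome and 33.3 in the monosome (log2 0.03). DST, the cytoskeletal linker dystonin, had 29.8, 19.2 and 17.2 FPKM (log2 0.55), and COL1A1, the main fibrillar collagen chain, had 4.79, 4.97 and 4.46 FPKM (log2 -0.13). These 3 lay within 2-fold of the median locus.

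**Figure D2:**
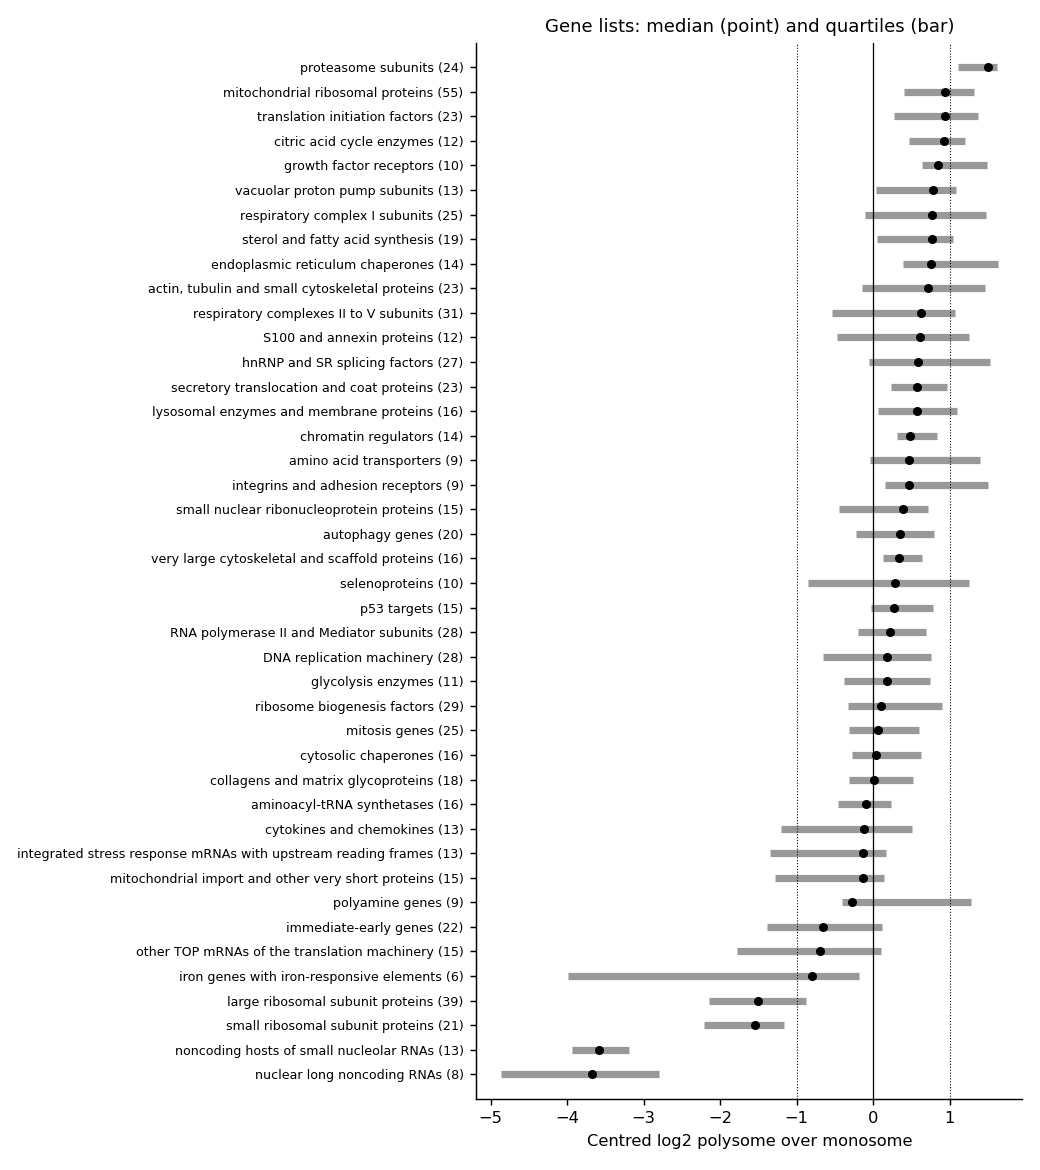
Median (point) and quartiles (bar) of the centred log2 polysome over monosome for 42 gene lists, with the number of compared members in brackets and dotted lines at 2-fold. The proteasome lies highest at 1.49, and the ribosomal proteins (-1.50 and -1.54), snoRNA hosts (-3.58) and nuclear noncoding RNAs (-3.68) lie lowest; uncentred and scaled by the authors' RNA factors, the 2 ribosomal protein medians were 0.56 and 0.51.

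Ferritin mRNAs were among the most monosome-weighted and the most abundant. Ferritin is the iron storage shell, built from a light chain (FTL) and a heavy chain (FTH1). FTL had 1575 FPKM in the polysome, 4513 in the oligosome and 64495 in the monosome library, 47.4-fold below the median locus (log2 -5.57). FTH1 had 2155, 6135 and 55516 FPKM, 29.8-fold below (log2 -4.90). After scaling each fraction by the authors' RNA factor, 79.4% of FTL and 70.8% of FTH1 signal lay in the monosome fraction, against a median of 11.8% over all loci. The 6 compared genes of the iron list held 13.1% of the summed FPKM of the monosome library, against 2.13% of the oligosome and 0.840% of the polysome.

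Other mRNAs known for an iron-responsive element did not lie near the ferritins. TFRC, the transferrin receptor, whose elements lie in its 3′ end, had 16.6 FPKM in the polysome, 13.5 in the oligosome and 15.8 in the monosome (log2 -0.15), and SLC11A2, an iron transporter, had 13.7, 8.44 and 6.72 FPKM (log2 0.71). EPAS1, the hypoxia factor HIF-2 alpha, lay at -1.29. A search of the annotated 5′ ends of 19555 coding genes on the gene strand for a hairpin of this form, a C, 5 bases, the loop CAGTG with any base after it and 5 bases that pair with the first 5, found it in 21 (0.107%), of which 9 were compared. Beside FTL and FTH1 they included GART, ZBTB14, ENC1, CSF1, ZER1 and ADAR, at -0.34, -0.12, 0.28, 0.39, 0.70 and 1.46. A match of letters is not evidence of a working element. The only 2 of the 9 below 2-fold were the ferritins.

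Of the lists of coding genes, the 2 of cytosolic ribosomal proteins had the lowest medians. Relative to the median locus, 27 of 39 large subunit proteins (median -1.50) and 18 of 21 small subunit proteins (median -1.54) lay at least 2-fold below and 0 above; uncentred and scaled by the authors' RNA factors, both medians changed sign, to 0.56 and 0.51. The length-range values given to their members, as for the proteasome, had a median of 0.29 in each list. The 2 lists made up 7.02% and 3.66% of all FPKM in the polysome library, 9.10% and 6.54% in the oligosome, and 11.7% and 7.67% in the monosome. Many of these genes have processed pseudogenes, so reads may be split among copies.

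RPLP1, an acidic stalk protein that recruits elongation factors, had 550.4 FPKM in the polysome, 2131 in the oligosome and 17704 in the monosome (37.2-fold below). RPLP0, the scaffold of the same stalk, had 953, 3182 and 13549 FPKM (16.5-fold below). RPSA, a small subunit protein also known as the laminin receptor, had 350.4, 1127 and 7190.1 FPKM (23.7-fold below), and 74 annotated pseudogenes carry its name. RPS12 had 769.98, 4973 and 13264 FPKM (19.9-fold below). In these 4 the monosome level exceeded the oligosome level, and that exceeded the polysome level. Annotated snoRNA genes overlap RPSA (SNORA6 and SNORA62) and RPS12 (SNORA33, SNORD100 and SNORD101), while no other gene overlaps RPLP1 or RPLP0. Whether reads at RPSA and RPS12 came from the snoRNAs was not tested.

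Ribosomal proteins did not all follow this pattern. RPL14 had 866 FPKM in the polysome, 387 in the oligosome and 609 in the monosome (log2 0.29), and RPL3, which lines the peptidyl transferase centre, had 584, 539 and 433 FPKM (log2 0.22). RPL41, with 25 residues the shortest of them, was highest in the oligosome (193, 3333 and 2231 FPKM, 13.4-fold below). Subunits of the same particle thus spanned -5.22 to 0.29 in this ratio.

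Other mRNAs of the translation machinery with known TOP tracts were mixed: 6 of 15 lay at least 2-fold below and 1 above (median -0.69). PABPC1, the poly(A) binding protein, had 294 FPKM in the polysome, 1021 in the oligosome and 4094 in the monosome (16.1-fold below). TPT1, the translationally controlled tumour protein, had 1684, 1859.8 and 16531 FPKM (11.4-fold below), and EEF1A1, the elongation factor that delivers aminoacyl-tRNA, had 579, 1049 and 2447 FPKM (4.89-fold below). NPM1, a nucleolar histone chaperone, lay at the other end, with 1387, 344 and 551 FPKM (2.17-fold above). EEF1A1, TPT1 and NPM1 have 39, 14 and 45 annotated pseudogenes under their names.

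The pyrimidine run described above was sought at the first listed start of 6119 coding loci. It was present at 34 of 46 ribosomal protein genes (73.9%) and at 8 of 10 of the other TOP genes (80.0%), against 935 of all 6119 (15.3%). Over all 27305 genes of the RefSeq start table it was present at 15.4%. On the opposite strand it stood at 1 of the 46 ribosomal protein genes (2.17%) and at 734 of the 6119 (11.995%). Ribosomal protein genes with the run had a median polysome over monosome of -1.75, and those without it -1.19. For the other TOP genes these medians were -0.77 and -0.83, and over the other coding loci 0.17 and 0.30. The run stood at 13.3% of the coding loci at least 2-fold above the median locus and at 19.3% of those at least 2-fold below. The set below includes many of the ribosomal protein genes, which were not taken out. Over the coding loci outside the ribosomal protein and TOP lists the share was 14.7%.

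Short proteins were gathered in the oligosome fraction. Of 163 coding loci for proteins under 100 residues, 85.9% stood higher in the oligosome than in both neighbours relative to the median locus, against 26.0% of coding loci in all. Their medians were 0.83 for oligosome over monosome, -1.54 for polysome over oligosome and -0.82 for polysome over monosome, which was 1.16 uncentred with the authors' RNA factors. From 200 to under 400 residues (2215 loci) the median polysome over monosome was highest, at 0.58, with 32.01% at least 2-fold above and 8.76% below. From 100 to under 200 residues (879 loci) it was 0.24, from 400 to under 800 (2716 loci) 0.20, from 800 to under 1600 (1116 loci) 0.06, and from 1600 residues up (270 loci) 0.21. Across 7359 loci Spearman's rho between protein length and this ratio was -0.10, and it was 0.18 below 400 residues and -0.10 from 400 up. These are descriptions across loci of the same 3 libraries.

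**Figure D3:**
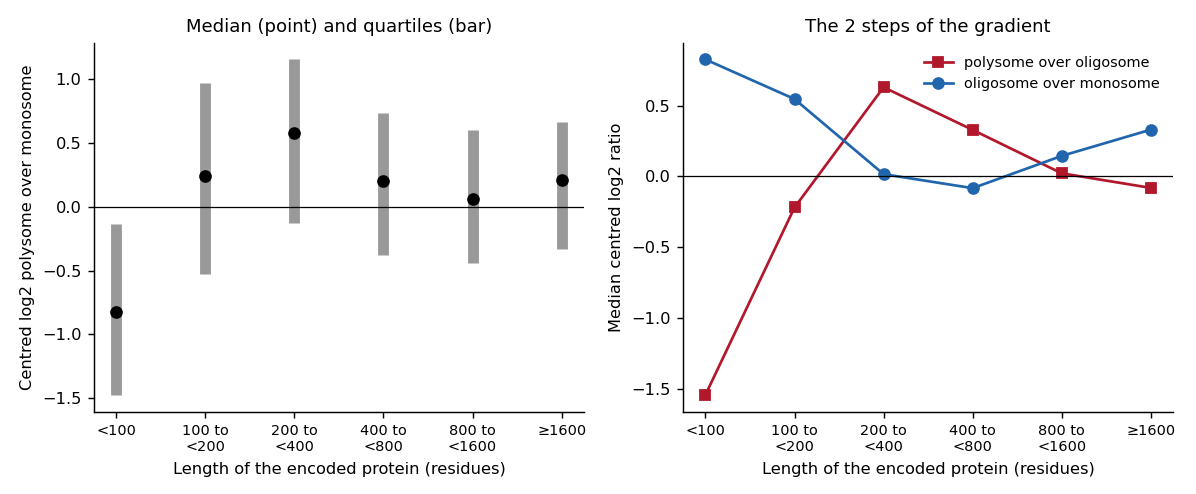
Left, centred log2 polysome over monosome by length of the encoded protein in residues (point, median; bar, quartiles). Right, medians of polysome over oligosome (squares) and oligosome over monosome (circles); under 100 residues they are -1.54 and 0.83, and from 200 to under 400 residues 0.63 and 0.02.

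The most abundant of the short mRNAs were the thymosins, actin monomer binding peptides of 44 residues. TMSB10 had 1476 FPKM in the polysome, 13425 in the oligosome and 8554 in the monosome (6.71-fold below the median locus), and TMSB4X had 1036, 9557 and 8497 FPKM (log2 -3.25). The calcium binding protein S100A6 had 2338, 7660.2 and 3379.7 FPKM (log2 -0.74). In all 3 the oligosome level was the highest.

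The oligosome level was also the highest in 4 other short proteins. SEC61G, the 68-residue gamma subunit of the protein-conducting channel, had 89.3 FPKM in the polysome, 521 in the oligosome and 210.5 in the monosome (2.71-fold below). OST4, a 37-residue subunit of oligosaccharyltransferase, had 69.4, 572 and 286 FPKM (4.73-fold below). TOMM7, a 55-residue subunit of the outer mitochondrial membrane channel, had 64.5, 272 and 207 FPKM (3.68-fold below). TXN, thioredoxin with 105 residues, had 248, 371 and 154 FPKM and, unlike these 3, lay above the median locus at 0.47.

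The lists that hold the thymosins and S100A6 also had members far above the median locus. Of 23 actin, tubulin and small cytoskeletal proteins 11 lay at least 2-fold above and 5 below, and of 12 S100 and annexin proteins 4 lay above and 0 below. TPM4, a tropomyosin of 284 residues, had 580.3 FPKM in the polysome, 124 in the oligosome and 144 in the monosome (3.47-fold above). ACTB, beta actin, had 3096, 539 and 1279 FPKM (2.09-fold above). ANXA1 and ANXA5, annexins of 346 and 320 residues, lay 3.17-fold and 2.91-fold above, with 665, 169 and 180.03 FPKM and 321, 55.2 and 94.2 FPKM. STMN1, the microtubule destabiliser stathmin with 149 residues, had 434, 333 and 119 FPKM (3.12-fold above).

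**Figure D4:**
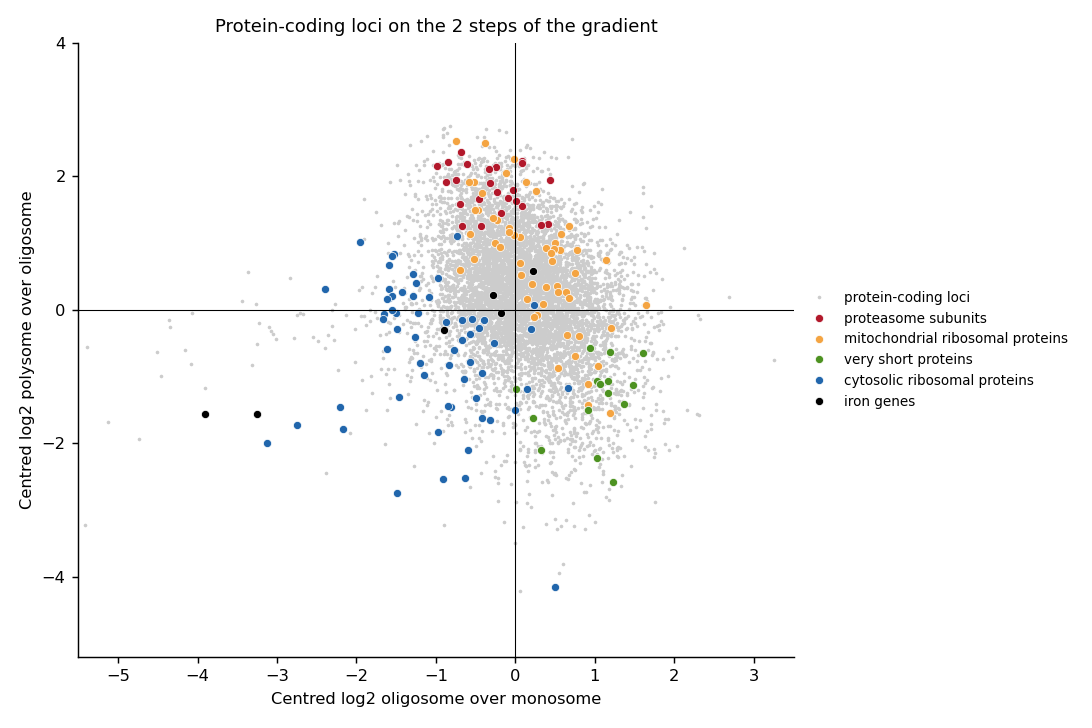
Each grey point is a protein-coding locus of neutral normoxia, by centred log2 oligosome over monosome (horizontal) and polysome over oligosome (vertical); 7 loci lie outside the axes. Proteasome subunits sit high on the vertical axis near 0 on the horizontal (medians 1.85 and -0.28), very short proteins to the lower right (-1.19 and 1.06), and large ribosomal subunit proteins to the left (-0.28 and -1.09).

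The 2 steps of the gradient separated groups that share a low polysome to monosome ratio. Of the 7365 coding loci, 2090 (28.4%) lay above the median locus in both steps, 973 (13.2%) below in both, 1917 (26.0%) were high in the oligosome alone and 2385 (32.4%) low there. For oligosome over monosome, 7.10% of all loci lay at least 2-fold above and 13.2% at least 2-fold below, and for polysome over oligosome these were 14.8% and 15.9%. Large ribosomal subunit proteins were low mainly in the first step (median -1.09 for oligosome over monosome, -0.28 for polysome over oligosome). In contrast, 15 very short and mitochondrial import proteins had medians of 1.06 and -1.19, and small ribosomal subunit proteins were low in both (-0.88 and -0.83).

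GAPDH, the glycolytic dehydrogenase, was low in the oligosome alone, with 2654 FPKM in the polysome, 813 in the oligosome and 2903 in the monosome (log2 -0.34, with 62 annotated pseudogenes). The oligosome FPKM was the lowest of the 3 in 9 of the 11 compared glycolysis genes, against 29.7% of the 7365 coding loci. Hexokinase HK1 and PFKM, the muscle form of phosphofructokinase, were the exceptions, and PFKM was highest in the oligosome (5.47, 7.94 and 7.01 FPKM in polysome, oligosome and monosome). PGAM1 had 85.1, 11.4 and 19.8 FPKM (3.57-fold above) and ALDOA 1192, 277 and 527 FPKM (1.95-fold above). In polysome over monosome, 1 of the 11 lay at least 2-fold above and 1 below, with a median of 0.17.

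Stress response mRNAs with upstream reading frames held 4 of 13 members at least 2-fold below and 1 above (median -0.13). ATF4, the transcription factor of the integrated stress response, had 61.1 FPKM in the polysome, 210.2 in the oligosome and 245 in the monosome (4.58-fold below). ATF5, its relative with similar upstream frames, had 10.3, 38.3 and 40.3 FPKM (4.24-fold below). DDIT3, the pro-apoptotic factor CHOP, was highest in the oligosome (13.4, 72.1 and 40.4 FPKM, 3.33-fold below). EIF2AK4, the amino acid sensing kinase GCN2, had 20.0, 12.5 and 8.06 FPKM (log2 1.00, just short of 2-fold).

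The count of upstream start codons itself had a weak relation to the ratio. Over 7359 coding loci rho was -0.06, with medians of 0.30 for loci with 0 upstream ATG (3486) and 0.15 for those with 5 or more (732). For proteins of 200 to under 400 residues rho was -0.22, with medians of 0.78 for 0 upstream ATG (1100 loci), 0.54 for 1 (449) and 0.27 for 2 or more (666). For proteins of 800 to under 1600 residues it had the other sign, at 0.16. The 3′ untranslated region had the larger coefficient over all lengths: rho was 0.16, and medians ran from 0.04 under 200 bases (792 loci) to 0.57 from 4000 bases up (756 loci). The share of G and C in the 5′ untranslated region gave 0.11, mean FPKM 0.14, 5′ untranslated length 0.02 and G or C at the wobble position of codons 0.01. Features were those of 1 annotated transcript per gene, which need not be the one these cells use.

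Of the immediate-early genes, whose mRNAs are short-lived, 9 of 22 lay at least 2-fold below and 1 above (median -0.65). EGR1, a zinc finger transcription factor, had 5.18 FPKM in the polysome, 18.5 in the oligosome and 43.2 in the monosome (8.29-fold below). ZFP36, the mRNA decay factor tristetraprolin, had 4.47, 17.6 and 32.2 FPKM (7.03-fold below). SRF, the serum response factor that drives such genes, had 11.1, 6.79 and 3.55 FPKM (2.30-fold above).

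Polyamine genes, several of which are controlled in translation, did not move as 1 group (9 compared, median -0.28). AMD1, adenosylmethionine decarboxylase, whose upstream frame senses polyamines, had 64.1 FPKM in the polysome, 41.1 in the oligosome and 21.6 in the monosome (2.49-fold above). ODC1, ornithine decarboxylase, had 69.1, 70.3 and 47.2 FPKM (log2 0.33). OAZ1, the antizyme made by a ribosomal frameshift, was highest in the oligosome (583, 1538 and 611 FPKM, log2 -0.28). Selenoproteins, whose stop codon UGA is read as selenocysteine, had 3 of 10 above 2-fold and 3 below. The lowest were SEPW1, with 87 residues (7.03, 143 and 130.2 FPKM, 18.9-fold below), and GPX1, a glutathione peroxidase (103, 585 and 225 FPKM, 2.52-fold below), both highest in the oligosome.

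Gene families grouped by the letters of their symbols, a grouping made after values had been seen, added 2 large sets. The 33 RAB genes, small GTPases of membrane traffic, had a median of 0.98, with 15 at least 2-fold above and 3 below. The 163 ZNF genes, zinc finger proteins, had a median of -0.15, with 3 above (1.84%) and 23 below (14.1%). The 112 SLC transporters had a median of 0.50. The 30 histone genes were high in the oligosome (medians 0.99 for oligosome over monosome and -1.11 for polysome over oligosome), with a median protein length of 126 residues.

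Most noncoding RNAs had a polysome to monosome ratio below that of the median locus. The 172 long noncoding RNAs had a median of -1.58, with 72.1% at least 2-fold below, against 24.2% of all loci. Their median FPKM was 1.37 in the polysome, 4.60 in the oligosome and 4.90 in the monosome. A locus low in the polysome could thus pass the minimum through the other fractions. At the median, 18.2% of their RNA-scaled signal lay in the polysome, 54.1% in the oligosome and 23.1% in the monosome fraction, so the oligosome held the largest share. The 72 small RNA loci had a median of -2.85 and held 4.69% of the summed FPKM of the monosome library, against 0.946% of the oligosome and 0.414% of the polysome. Their median FPKM was 0.356, 2.02 and 8.46 in polysome, oligosome and monosome, so a locus seen mainly in the monosome could pass the minimum. RMRP, the RNA of the endonuclease RNase MRP, had 4.60 FPKM in the polysome, 15.6 in the oligosome and 490.00 in the monosome (102-fold below). RPPH1, the RNA of RNase P, had 2.06, 5.93 and 277 FPKM (105-fold below). NEAT1, the scaffold of nuclear paraspeckles, had 13.5, 106 and 239.8 FPKM (19.2-fold below), while TUG1 had 7.601, 6.04 and 2.69 FPKM and lay 2.01-fold above. MALAT1 was not analysed here, since no locus names it alone.

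Noncoding hosts of small nucleolar RNAs are spliced transcripts that ribosomes are known to engage and that are then decayed. All 13 compared hosts lay at least 2-fold below the median locus (median -3.58), with -2.94 for polysome over oligosome and -0.58 for oligosome over monosome. SNHG5 had 41.2 FPKM in the polysome, 914 in the oligosome and 2426 in the monosome (66.7-fold below). GAS5, a host known as a TOP RNA, had 12.2, 91.5 and 391 FPKM (34.6-fold below), and SNHG17, the host nearest to the median locus, had 7.13, 15.1 and 25.1 FPKM (3.72-fold below). In these 3 the monosome level was the highest and the polysome level the lowest.

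Loci with no gene name had the lowest median of the kinds of loci. Of 1135, 90.9% lay at least 2-fold below (median -2.98), and they made up 10.6% of all FPKM in the polysome library, 13.8% in the oligosome and 17.8% in the monosome. They were listed at 0 for 522 loci in the polysome, 279 in the oligosome and 10 in the monosome. Their median FPKM was 0.101 in the polysome, 0.555 in the oligosome and 7.19 in the monosome. Many thus passed the minimum mean through the monosome library, and for those a low ratio follows from the filter. The share below is therefore not a result about their loading with ribosomes. The 664 loci with a clone name alone had a median of -1.32, and 288 pseudogenes -0.66. Loci that name several genes (2231) had a median of 0.13, near the 0.26 of the 7507 loci of protein-coding genes.

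**Figure D5:**
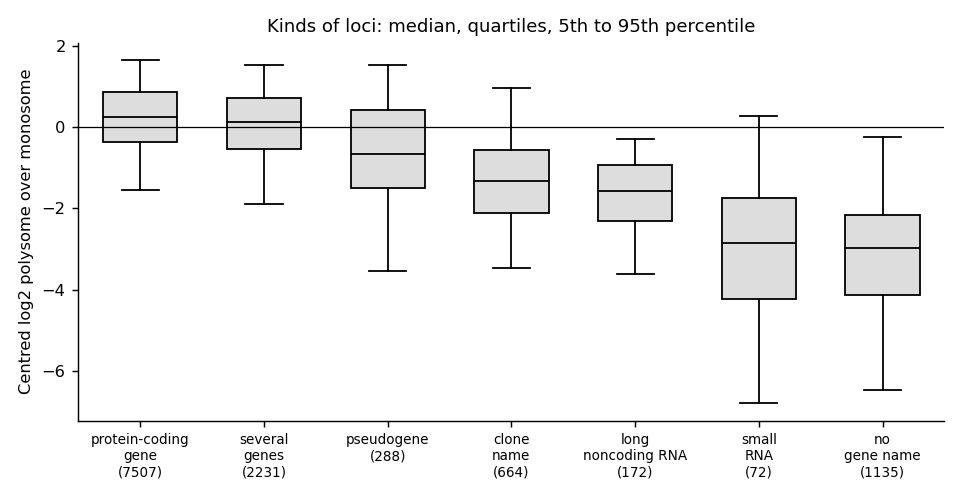
Centred log2 polysome over monosome by kind of locus (line, median; box, quartiles; whiskers, 5th to 95th percentile; number of loci in brackets). Protein-coding loci have a median of 0.26, and the medians are -1.58 for long noncoding RNAs, -2.85 for small RNAs and -2.98 for loci with no gene name. Many loci with no gene name passed the minimum mean through the monosome library alone.

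Some coding loci stood as low as the noncoding ones. Of the 7365 whose gene is named at no other compared locus, 20 lay at least 16-fold below the median locus, among them FTL, FTH1, RPLP1, RPLP0, RPSA, RPS12, PABPC1 and SEPW1. DMRTC1 was the lowest of them, with 1.80 FPKM in the polysome, 6.54 in the oligosome and 1360.4 in the monosome (564-fold below); over all 7507 coding loci, which include genes named at several loci, the lowest value was -11.12. RANBP10, a Ran binding protein, had 35.5, 103 and 11910.2 FPKM (379-fold below), and SEMA6C, a semaphorin, had 0.701, 5.32 and 159 FPKM (109-fold below). RANBP3L, FCHO2 and NEK8 lay 46.5-fold, 37.7-fold and 30.01-fold below. The polysome values of DMRTC1, SEMA6C and FCHO2 (1.80, 0.701 and 1.57 FPKM) were near the 1 FPKM added to each value. The size of their folds thus rests in part on that addition. RANBP10, at 35.5 FPKM in the polysome, was far above it.

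Some of these 20 loci overlap other annotated genes. BEST1, a chloride channel of the retinal pigment epithelium, had 1.32, 4.03 and 70.4 FPKM (35.7-fold below). Its polysome value was also near the added 1 FPKM. The span of BEST1 overlaps that of FTH1 on the other strand. NOP56, a core protein of box C/D snoRNA particles, had 18.6, 32.6 and 318 FPKM (18.9-fold below), and 5 snoRNA genes lie in its span. Of the 20, 5 hold a small RNA in their span, against 15.2% of all coding loci, and 12 are overlapped by another gene, against 62.6%. Whether the reads of such a locus came from the named mRNA was not tested.

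The single most abundant coding locus of the polysome library was RNF10, a ubiquitin ligase, with 28883 FPKM in the polysome, 886 in the oligosome and 24059 in the monosome. It lay at the median locus in polysome over monosome (0.05) while being far below it in oligosome over monosome (-4.84). Its polysome over monosome value was 5.41 in normoxia with acidosis, 6.25 in neutral hypoxia and -1.02 in hypoxia with acidosis. The files give 1 value per locus, so whether the reads at RNF10, RANBP10 or DMRTC1 come from the named mRNA or from another RNA of the same locus was not tested.

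The same ratio was computed in the other 3 conditions, which share no library with neutral normoxia. Over the 12164 loci Spearman's rho with neutral normoxia was 0.859 in normoxia with acidosis, 0.807 in neutral hypoxia and 0.607 in hypoxia with acidosis, and over the 7365 coding loci 0.810, 0.779 and 0.461. Of all 12164 loci, 15.97% lay at least 2-fold above and 23.26% at least 2-fold below in normoxia with acidosis. These shares were 17.14% and 23.88% in neutral hypoxia, and 18.81% and 23.27% in hypoxia with acidosis. The shared percentages of the neutral normoxia set are to be read beside them. Loci at least 2-fold above in neutral normoxia and in normoxia with acidosis numbered 1319. They are 66.3% of the neutral normoxia set and 67.9% of the other. For those at least 2-fold below, the number was 2274, or 77.4% and 80.4%. In neutral hypoxia 1279 loci were shared above (64.3% of the neutral normoxia set and 61.3% of the other) and 2073 below (70.6% and 71.4%). The overlap was smaller in hypoxia with acidosis, with 898 loci shared above (45.1% and 39.2%) and 1760 below (59.9% and 62.2%), and 106 loci that were at least 2-fold above in neutral normoxia were at least 2-fold below there. The neutral normoxia set below includes 1032 loci with no gene name. Many of them passed the minimum through the monosome library, so their low baseline ratio follows from the filter. They were not taken out of the shared counts below. All 4 conditions share the cell line, the annotation and the protocol.

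The order of groups seen at baseline was kept for some lists and not for others. Large ribosomal subunit proteins had a median of -1.50 in neutral normoxia, against -3.84 in normoxia with acidosis, -3.96 in neutral hypoxia and -4.88 in hypoxia with acidosis. The proteasome median was 1.49 in neutral normoxia, against 1.13, 1.07 and -0.04. Noncoding snoRNA hosts lay at -3.58 in neutral normoxia, against -4.17, -4.43 and -4.17. FTL lay at -5.57 in neutral normoxia, against -4.72, -4.54 and -3.97, so its monosome weighting was present in each condition. RPL3 lay at 0.22 in neutral normoxia, against -1.93, -1.57 and 0.25, and AHSA1 at 3.18, against 2.96, 2.15 and 1.41. Differences between conditions have no replicate error.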

How the data were processed

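Per the labels' protocols, fractions of a ribosome density gradient from U87MG cells were extracted with phenol and chloroform and made into stranded mRNA libraries. The submitters' processing notes list GRCh38 as the build and Cuffnorm, Cufflinks 2.2.1, STAR 2.5.0 and bcl2fastq as tools. What each tool did, the annotation and the way libraries were normalized are not given in these sources. FPKM values were deposited for 1 library per column, and a very abundant RNA can lower the FPKM of other loci. Per the file headers, the authors scaled FPKM by the RNA concentration of each library to give a further signal. Relative to the monosome fraction, the recovered RNA factors were 3.597 for the polysome and 2.463 for the oligosome; here they served for shares per fraction and 1 alternative. A further 30 columns of per-sample values were not used.

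Loci with a mean of at least 1 FPKM were compared as log2 of FPKM plus 1, centred on the median locus, which understates differences of low loci. Counts past 2-fold are descriptions. Names were matched to GENCODE 29 and RefSeq (315 older symbols through RefSeq synonyms), which also gave lengths and sequences. A gene entered a list when 1 compared locus named it alone. Genes were named by a rule: the 12 highest and lowest coding loci with a mean of at least 10 FPKM, the 2 highest and lowest of each list, the 5 most abundant coding and noncoding loci, and a fixed set; further ones fill out a group or were chosen after their values were seen, and some that the rule picks are not reported here. The loci, lists and rule were chosen with earlier results of these data known. The ratio and the counts were tested on simulated data. Python 3.11.15, pandas 2.3.3 and matplotlib 3.10.9 were used.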

Additional observations from a re-analysis of the deposited data

How the results depend on the processing

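Each result was recomputed under 10 other settings, for 42 list medians, 6 length ranges, 114 named genes and the 2 counts past 2-fold. A pseudocount of 0.1 FPKM, no minimum level, no centring and a value above 0 in each library left both counts within 1.5 times of 1989 and 2938. The count above the median locus was 1205 with a pseudocount of 5 FPKM, 1132 with a mean of at least 5 FPKM, 1246 over loci that name 1 gene and no small RNA, 8780 with FPKM multiplied by the authors' RNA factor without centring, and 864 for oligosome over monosome. The count below was 1684, 1715, 1729, 1399 and 1610 in these 5, and 1929 for polysome over oligosome. With a stricter minimum or fewer kinds of loci, fewer loci were compared. With a mean of at least 5 FPKM, proteins under 100 residues had a median of -1.01.

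The RNA factors without centring moved the median locus to 1.94, with 10091 loci (83.0%) above 0. Under them the median was 0.56 for large and 0.51 for small ribosomal subunit proteins, 1.16 for proteins under 100 residues and 2.60 for those of 200 to under 400. The values of EIF4A2 (0.93), SRSF6 (0.47), HNRNPH1 (0.90), ATP5I (0.65), NDUFB3 (0.82), DDIT3 (0.25), SEC61G (0.61), TOMM7 (0.17), SNHG17 (0.030), EPAS1 (0.74), RPL32 (0.81) and GPX1 (0.72) turned positive. A factor common to all loci of a library moves them together, so their order was kept but for the pseudocount.

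The steps of the gradient gave other values by their construction. For polysome over oligosome, the medians were -0.28 for large and -0.83 for small ribosomal subunit proteins and -1.54 for proteins under 100 residues, and SRSF6 and RPL32 lay at 0.14 and 0.27. For oligosome over monosome, the medians were -0.28 for the proteasome, -0.88 for small ribosomal subunit proteins and -0.58 for snoRNA hosts. Polysome-weighted genes that lay below 0 there were MRPL28 (-0.017), MRPL19 (-0.38), PDHB (-0.060), PDHA1 (-0.51), EIF2S1 (-0.35), AXL (-0.14), ACTB (-1.32), PGAM1 (-0.82), TPM4 (-0.29), CYC1 (-0.19), ANXA1 (-0.17), ANXA5 (-0.84) and NPM1 (-0.75). Other genes lay at least 2-fold below the median locus in polysome over monosome but above 0 there, each with its highest FPKM in the oligosome. They were TMSB10 (0.57), TMSB4X (0.094), ATP5I (1.05), USMG5 (0.50), NDUFB3 (1.10), RPL41 (0.50), DDIT3 (0.74), SEC61G (1.23), OST4 (0.92), TOMM7 (0.32), SEPW1 (0.058) and GPX1 (1.30).

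No paired analysis was possible because each fraction has 1 library, and for the same reason no library could be left out. Depth is unknown, and the interquartile range of the ratio was 0.87 for loci of 1 to 2 FPKM and 2.24 from 100 FPKM up, so low loci can differ less on this scale.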
